A study of Mus musculus with 10 samples.

Results

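Intraepithelial lymphocytes are T cells that sit between the epithelial cells of the intestine. The genes described here are 10 genes that these cells are known to use, taken by symbol from a fixed list and found among the 35275 Ensembl gene IDs counted in every library. They are *Cd3e*, *Cd8a*, *Cd8b1*, *Itgae*, *Gzma*, *Gzmb*, *Cd160*, *Il2rb*, *Ccl5* and *Cd4*. All 10 were among the 15610 genes that passed the filter on low counts. The RNA came from segments labelled as proximal intestine of *Zip14* (*Slc39a14*) knockout mice and wild-type (WT) mice, with 5 libraries in each group and 1 library per mouse. The paper describes the knockout as a deletion of *Zip14* in the whole body (WB-KO), with WT mice of the same strain bred from heterozygous parents as controls. The group is called WB-KO after the paper, since its samples are labelled KO without the kind of deletion, while the series title names an enterocyte-specific one. The labels give an age of 8 to 10 weeks for all mice, name no treatment, and do not give the sex. The wall was used as a segment, without isolating the epithelium.

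Most T cells of the small intestinal epithelium carry CD8 on their surface, often as a pair of CD8α chains without CD8β, and bind E-cadherin of the epithelial cells through the integrin chain encoded by *Itgae*. They store granzymes, depend on interleukin-15 made by epithelial and myeloid cells, and include both αβ and γδ T cells. CD4 T cells lie mostly in the lamina propria below. In RNA from whole intestine, fewer cells of a type and less RNA per cell cannot be told apart, and T cells of the epithelium, the lamina propria and lymphoid follicles were not separated.

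The total count was between 16729787 and 20819678 reads per WT library and between 17118742 and 19414828 per WB-KO library. Levels are given in CPM, the read counts of a gene relative to the library size after TMM normalization, and fold changes are WB-KO over WT on the log2 scale from edgeR's quasi-likelihood test, with Benjamini-Hochberg adjustment over the 15610 genes. *Slc39a14*, the deleted gene, fell from 260.4 ± 62.5 to 102 ± 32.9 CPM (mean ± SD, n = 5 each; log2 fold change -1.35, SE 0.22, edgeR adjusted p = 0.00184), and the groups did not overlap. The libraries also differed in tissue makeup. The summed level of 8 B cell markers was between 10.6 and 17.6 CPM in WT 1 to WT 4 and 13.2 and 23.4 CPM in WB-KO 1 and WB-KO 5, but 108.2 CPM in WT 5 and 187.2, 208.4 and 261.5 CPM in WB-KO 2, WB-KO 3 and WB-KO 4. Summed levels of 8 smooth muscle markers were 1084 to 1914 CPM in WT and 2868 to 8584 CPM in WB-KO libraries. Those of 5 ileum markers were 199 to 237 CPM in WT and 3245 to 10499 CPM in WB-KO libraries. *Fabp6*, which binds bile acids in ileal enterocytes, was at 0.779 ± 0.607 CPM in WT and 5515 ± 2861 CPM in WB-KO mice. *Lct*, the lactase of the proximal brush border, was at 3537 ± 180.7 and 198 ± 306.5 CPM, without overlap (edgeR adjusted p = 0.0632). The segments of the groups may therefore differ in position along the intestine and in muscle content. The paper states that *Zip14* expression is highest in the proximal small intestine and falls further along the gut. In the difference of *Slc39a14* and in every difference below, position, muscle content and the genotype cannot be told apart.

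Of the 10 lymphocyte genes, 9 had a lower fitted level in WB-KO mice and *Cd8b1* had a higher one, but none passed the threshold of 0.05 in edgeR. For comparison, 29.9% of all genes tested passed it, 13.9% lower and 16.0% higher in WB-KO mice. At an unadjusted p under 0.05 there were 5 of the 10 (*Cd3e*, *Cd8a*, *Itgae*, *Cd160* and *Cd4*), against 43.3% of all genes tested. DESeq2 called 2 lower, *Cd3e* and *Itgae*, beside 13.2% of all genes it tested. The median log2 fold change was -0.52 over the 10 genes and 0.03 over all genes tested. The groups overlapped for all 10, whereas 21.1% of all genes tested had groups that did not overlap. Leaving out WB-KO 1 gave 4 genes called lower by edgeR (*Cd8a*, *Itgae*, *Cd160* and *Cd4*), where 16.1% of all genes tested were called lower. Leaving out WB-KO 5 gave 1 (*Cd3e*), beside 13.1% of all genes. Leaving out any other library gave 0, beside 9.90% to 13.3% of all genes called lower. The direction was not stable to a covariate. With the smooth muscle marker score in the fit, all 10 log2 fold changes were positive, from 0.095 for *Cd4* to 2.88 for *Gzmb*. None was called, in a fit that called 0.0384% of all genes tested. With the epithelial marker score, 7 of the 10 were negative and none was called, where 0.0448% of all genes tested were.

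**Figure D1:**
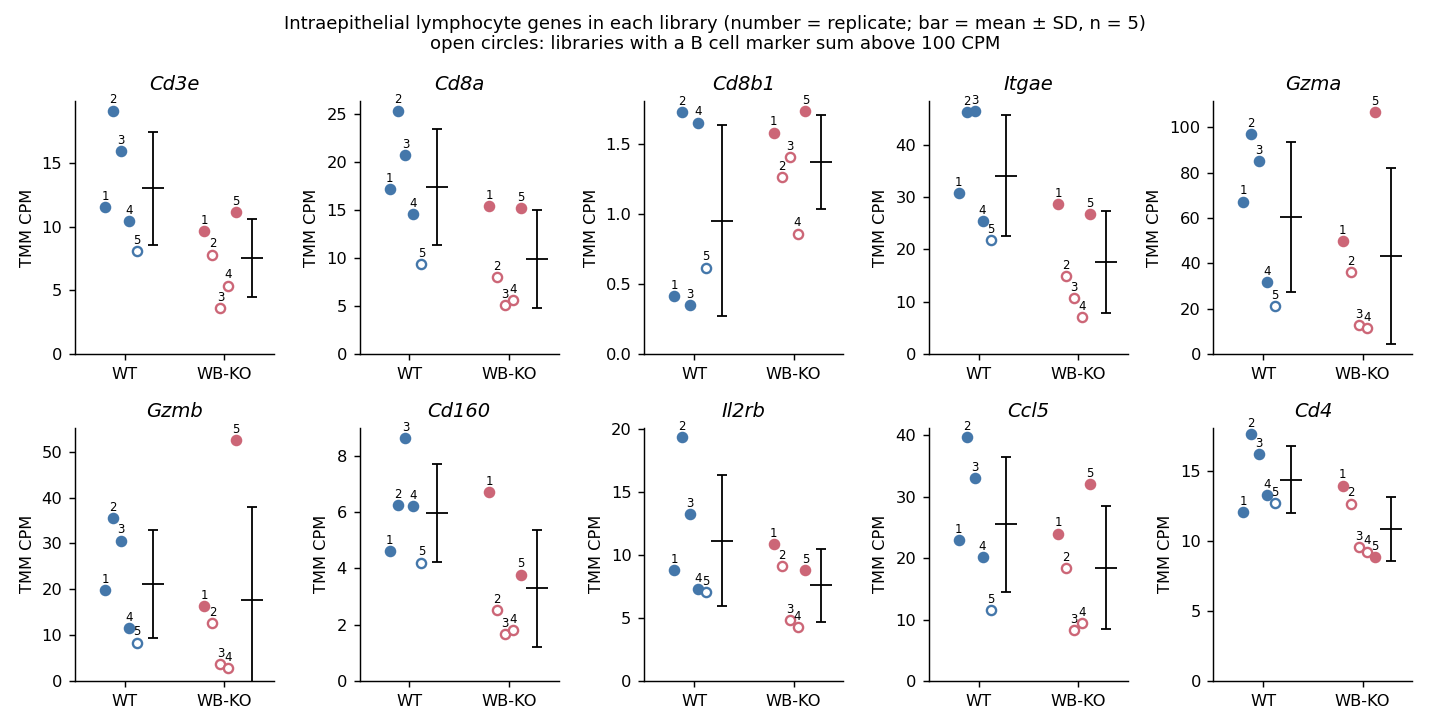
Level of each of the 10 genes (CPM after TMM normalization, linear axis from 0) in the 5 WT and 5 WB-KO libraries, numbered by replicate, with the mean ± SD beside each group and open circles for the 4 libraries with a B cell marker sum above 100 CPM. WB-KO 3 and WB-KO 4 are the lowest library of 8 genes, and WB-KO 5 is the highest library for *Cd8b1*, *Gzma* and *Gzmb*.

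The spread within each group was wide and followed the same libraries for most of these genes. The summed level of the 10 genes was 195.4, 307.9, 270.2, 142.3 and 104.8 CPM in WT 1 to WT 5. It was 176.9, 123.4, 61.6, 58.0 and 267.5 CPM in WB-KO 1 to WB-KO 5. WB-KO 1, WB-KO 2 and WB-KO 5 were therefore within the WT range, WB-KO 3 and WB-KO 4 lay below it, and the 4 libraries with the lowest sums, WT 5, WB-KO 2, WB-KO 3 and WB-KO 4, were the 4 with B cell sums above 100 CPM. The part of the tissue that holds these B cells in the sums was not tested. Values without those 4 libraries, which leave 4 WT and 2 WB-KO libraries, were chosen after seeing the data and are given below as a description. As 3 of the 4 are WB-KO libraries and all 4 have the lowest sums, a smaller difference in the sum without them follows from the choice. *Gzma* and *Gzmb* then had positive log2 fold changes of 0.15 and 0.49.

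**Figure D2:**
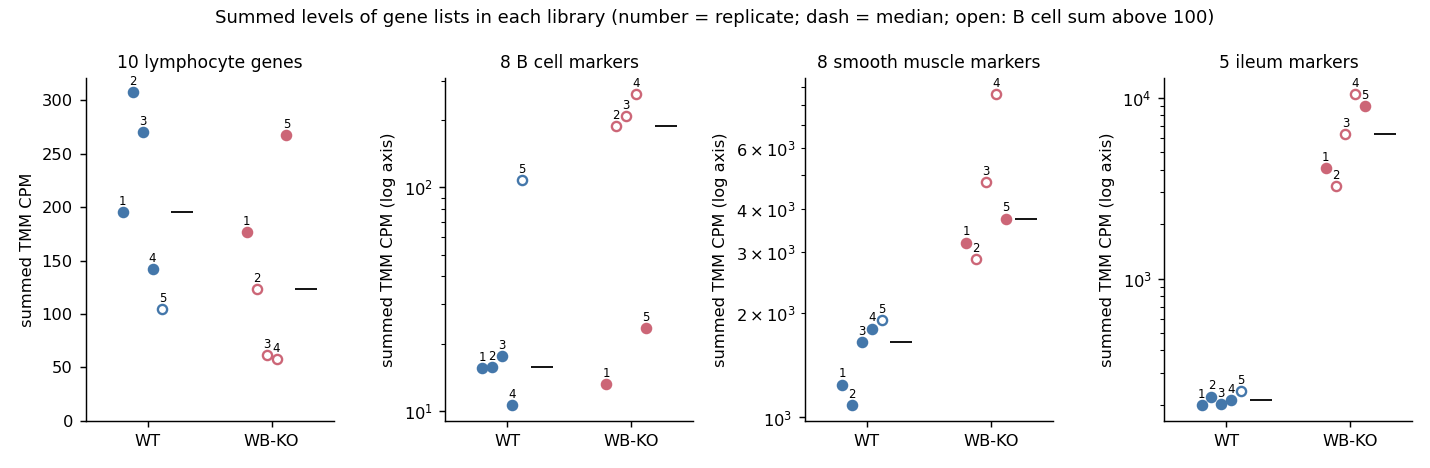
Summed CPM of the 10 lymphocyte genes (linear axis) and of B cell, smooth muscle and ileum markers (log axes) in each library, numbered by replicate, with a dash at the group median. The 4 open circles, WT 5 and WB-KO 2, 3 and 4, have B cell sums of 108.2 to 261.5 CPM and the lowest lymphocyte sums, 58.0 to 123.4 CPM.

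Relative to gene length, *Gzma* was the most abundant of the 10 and *Cd8b1* the least, in both groups. In WT mice, the TMM CPM per kilobase of exon was 60.1 ± 32.8 for *Gzma*, 26.5 ± 11.5 for *Ccl5* and 14.8 ± 8.22 for *Gzmb* (SD, n = 5). Those of *Itgae* (7.45 ± 2.53), *Cd8a* (4.79 ± 1.66), *Cd4* (3.57 ± 0.60), *Cd3e* (3.20 ± 1.09), *Il2rb* (2.60 ± 1.22) and *Cd160* (2.26 ± 0.66) followed, and *Cd8b1* was at 0.641 ± 0.458. The order of the means was identical in WB-KO mice, from 43.1 ± 38.6 for *Gzma* to 0.921 ± 0.226 for *Cd8b1*. It did not hold within most WB-KO libraries for 2 pairs: *Cd8a* (2.71 ± 1.40) was above *Cd4* (2.69 ± 0.57) in 2 of 5, and *Cd3e* above *Il2rb* in 2 of 5. The ranges of neighbours in this order overlapped over the WT libraries, except between *Cd160* and *Cd8b1*. Within a library the higher of *Gzma* and *Ccl5*, of *Ccl5* and *Gzmb*, of *Gzmb* and *Itgae* and of *Itgae* and *Cd8a* was above the lower in all 5 WT libraries, while *Il2rb* was above *Cd160* in 3 of 5.

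*Cd3e* (ENSMUSG00000032093) encodes the ε chain of CD3, the signalling part of every T cell receptor, and marks T cells as a whole. Its position is chromosome 9, minus strand, 44998740 to 45009627 (GRCm38). Its level was 11.6, 19.1, 16.0, 10.4 and 8.13 CPM in WT 1 to WT 5 and 9.69, 7.82, 3.62, 5.39 and 11.2 CPM in WB-KO 1 to WB-KO 5. WB-KO 2, 3 and 4 were below all WT libraries, and WB-KO 1 and 5 lay among them. The means were 13.1 ± 4.44 and 7.54 ± 3.08 CPM, with a log2 fold change of -0.79 (95% interval -1.49 to -0.09, edgeR adjusted p = 0.0793). Without the 4 libraries with B cell markers it was -0.45.

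*Cd8a* (ENSMUSG00000053977; chromosome 6, plus strand, 71373427 to 71379173) encodes the CD8α chain, a coreceptor for MHC class I that epithelial T cells also carry as a homodimer. It was at 17.1, 25.3, 20.7, 14.6 and 9.36 CPM in WT 1 to WT 5 and at 15.4, 7.97, 5.13, 5.62 and 15.2 CPM in WB-KO 1 to WB-KO 5. Again WB-KO 2, 3 and 4 had less than any WT library. The log2 fold change was -0.82 (95% interval -1.61 to -0.03, edgeR adjusted p = 0.104), and -0.34 without the 4 libraries.

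*Cd8b1* (ENSMUSG00000053044; chromosome 6, plus strand, 71322788 to 71337494) encodes CD8β, which pairs with CD8α on conventional cytotoxic T cells. It was the only one of the 10 with a positive log2 fold change. Its counts were low, 8, 27, 6, 30 and 11 reads in WT 1 to WT 5 and 28, 24, 26, 18 and 33 reads in WB-KO 1 to WB-KO 5. In CPM these were 0.415, 1.72, 0.350, 1.65 and 0.616 against 1.58, 1.26, 1.40, 0.858 and 1.73. WT 1, WT 3 and WT 5 were below all WB-KO libraries, and WT 2 and WT 4 lay among them. The log2 fold change of 0.53 had a 95% interval from -0.45 to 1.51 (edgeR adjusted p = 0.390). It was 0.84 without WT 2 and 0.81 without WT 4, but 0.33 without WT 1 and 0.31 without WT 3.

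*Cd4* (ENSMUSG00000023274; chromosome 6, minus strand, 124864692 to 124888221) encodes the coreceptor for MHC class II of helper T cells. It varied least among the 10 genes within each group, 1.46-fold from the lowest to the highest library in WT and 1.58-fold in WB-KO mice. The values were 12.1, 17.7, 16.2, 13.3 and 12.7 CPM in WT 1 to WT 5 and 14.0, 12.7, 9.55, 9.25 and 8.87 CPM in WB-KO 1 to WB-KO 5. In contrast to the other 9 genes, its lowest library was WB-KO 5. The means were 14.4 ± 2.42 and 10.9 ± 2.31 CPM, with a log2 fold change of -0.41 (95% interval -0.77 to -0.04, edgeR adjusted p = 0.0873), and -0.37 without the 4 libraries.

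*Itgae* (ENSMUSG00000005947; chromosome 11, plus strand, 73090583 to 73147446) encodes integrin αE, or CD103, which holds T cells and some dendritic cells at the epithelium by binding E-cadherin. It had the most negative log2 fold change and the lowest adjusted p of the 10. Its level was 30.7, 46.2, 46.4, 25.4 and 21.8 CPM in WT 1 to WT 5 and 28.7, 14.9, 10.6, 7.05 and 26.8 CPM in WB-KO 1 to WB-KO 5. WB-KO 1 and 5 were above WT 4 and WT 5, and the remaining 3 lay under the whole WT range. Means of 34.1 ± 11.6 and 17.6 ± 9.66 CPM gave a log2 fold change of -0.95 (95% interval -1.78 to -0.13, edgeR adjusted p = 0.0755). It was -0.42 without the 4 libraries. *Itgax*, an integrin chain of dendritic cells and some macrophages, fell from 47.7 ± 7.64 to 22.0 ± 11.2 CPM (log2 fold change -1.12, edgeR adjusted p = 0.0160), and the share of *Itgae* reads that came from dendritic cells was not tested.

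*Gzma* and *Gzmb* encode granzymes A and B, proteases that cytotoxic cells release into their targets. The promoter windows of this pair are shown because the genes ranked the 10 libraries in the identical order. They are RefSeq sequences of GRCm38.p6, 250 bases before to 50 bases after the RefSeq start, for *Gzma* at chr13:113100932-113101231 and for *Gzmb* at chr14:56262285-56262584, both on the minus strand and written 5′ to 3′. The *Gzmb* window lies wholly upstream of the gene position given below, 56258838 to 56262260, which is from another annotation with a different start. Capitals mark every match to TGTGGT, the core of RUNX sites, to TCACAC, the core of T-box sites, or to TGAGTCA, an AP-1 site, on either strand.
Gzma: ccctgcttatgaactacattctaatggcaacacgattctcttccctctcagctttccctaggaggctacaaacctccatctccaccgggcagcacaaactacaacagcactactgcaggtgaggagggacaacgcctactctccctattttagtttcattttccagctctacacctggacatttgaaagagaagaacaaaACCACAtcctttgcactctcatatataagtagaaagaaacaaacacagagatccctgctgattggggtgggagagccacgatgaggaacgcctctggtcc
Gzmb: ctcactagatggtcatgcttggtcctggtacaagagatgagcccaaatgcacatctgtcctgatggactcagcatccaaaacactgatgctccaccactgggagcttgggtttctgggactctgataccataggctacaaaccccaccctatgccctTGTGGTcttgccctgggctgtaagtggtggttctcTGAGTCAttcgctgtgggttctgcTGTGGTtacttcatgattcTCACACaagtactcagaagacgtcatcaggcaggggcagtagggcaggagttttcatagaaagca

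The *Gzma* window held 1 match to TGTGGT, with its first base at -50 from the start and read on the other strand as ACCACA. The *Gzmb* window held matches to TGTGGT at -93 and -34, to TGAGTCA at -58 and to TCACAC at -15, none of them overlapping another. Of 32851 RefSeq promoter windows of the same length, 16.8% held TGTGGT, 14.5% held TCACAC and 5.2% held TGAGTCA on either strand. Windows were also at hand for *Cd3e* and *Cd8a*, which held no match to the 3 motifs, and for *Cd160*, whose 2 windows each held 1 match to TGTGGT and 1 to TCACAC. These are matches of letters, and the binding of a factor was not measured.

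*Gzma* (ENSMUSG00000023132; chromosome 13, minus strand, 113093825 to 113100981) was at 67.3, 97.0, 85.0, 31.8 and 21.1 CPM in WT 1 to WT 5. It was at 49.7, 36.2, 12.8, 11.5 and 106.6 CPM in WB-KO 1 to WB-KO 5. The highest and the lowest of the 10 libraries were therefore both from WB-KO mice, 9.24-fold apart. The log2 fold change of -0.48 had a 95% interval from -1.81 to 0.86 (edgeR adjusted p = 0.573). It was -1.13 without WB-KO 5, and -0.24, -0.26 and -0.23 without WT 2, WB-KO 3 and WB-KO 4. *Gzmb* (ENSMUSG00000015437; chromosome 14, minus strand, 56258838 to 56262260) was at 19.9, 35.6, 30.6, 11.5 and 8.35 CPM in WT 1 to WT 5 and at 16.4, 12.6, 3.72, 2.81 and 52.5 CPM in WB-KO 1 to WB-KO 5. It spread the most of the 10 genes over the WB-KO libraries, 18.7-fold, where WB-KO 5 stood apart at the top. Over the WT libraries it spread 4.26-fold, less than *Cd8b1* (4.92-fold) and *Gzma* (4.59-fold). Its log2 fold change of -0.27 had a 95% interval from -1.83 to 1.29 (edgeR adjusted p = 0.799). It was -1.26 without WB-KO 5, 0.01 without WB-KO 4, and between these when any other library was left out. Both intervals reach well to either side of 0, so that the direction of the granzymes was not resolved with 5 mice per group.

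*Cd160* (ENSMUSG00000038304; chromosome 3, minus strand, 96798763 to 96829351) encodes a receptor for HVEM on cytotoxic lymphocytes of the intestine. The values were 4.62, 6.25, 8.63, 6.21 and 4.20 CPM in WT 1 to WT 5 and 6.70, 2.52, 1.67, 1.81 and 3.78 CPM in WB-KO 1 to WB-KO 5. WB-KO 2, 3, 4 and 5 had less than any WT library, while WB-KO 1 was above WT 1, WT 2, WT 4 and WT 5. The log2 fold change was -0.86 (95% interval -1.69 to -0.03, edgeR adjusted p = 0.103), and -0.29 without the 4 libraries with B cell markers. Without WB-KO 1 it was -1.29 (edgeR adjusted p = 0.00944). *Cd160* shares 68 exon bases with *Pdzk1* on the opposite strand, which was counted at 199.3 ± 11.1 CPM in WT and 151.3 ± 70.0 CPM in WB-KO mice (edgeR adjusted p = 0.236). The handling of strand was not given in the sources used here, so that reads in those bases cannot be assigned to either gene.

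*Il2rb* (ENSMUSG00000068227; chromosome 15, minus strand, 78479256 to 78495271) encodes the β chain of the receptors for interleukin-2 and interleukin-15. It was at 8.77, 19.3, 13.2, 7.25 and 7.06 CPM in WT 1 to WT 5 and at 10.8, 9.13, 4.80, 4.29 and 8.81 CPM in WB-KO 1 to WB-KO 5. Only WB-KO 3 and WB-KO 4 were below all WT libraries. The log2 fold change of -0.56 had a 95% interval from -1.31 to 0.20 (edgeR adjusted p = 0.233). It was -0.27 without WT 2, the highest library, and -0.30 without the 4 libraries with B cell markers.

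*Ccl5* (ENSMUSG00000035042; chromosome 11, minus strand, 83525778 to 83530518) encodes a chemokine that memory and cytotoxic T cells make. Its level was 23.0, 39.7, 33.0, 20.2 and 11.5 CPM in WT 1 to WT 5 and 24.0, 18.3, 8.26, 9.44 and 32.1 CPM in WB-KO 1 to WB-KO 5. As for *Il2rb*, WB-KO 3 and WB-KO 4 alone were below the WT range. The log2 fold change was -0.47 (95% interval -1.36 to 0.43, edgeR adjusted p = 0.401), and -0.048 without the 4 libraries with B cell markers. It was -0.76 without WB-KO 5, and -0.26, -0.29 and -0.30 without WT 2, WB-KO 3 and WB-KO 4.

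**Figure D3:**
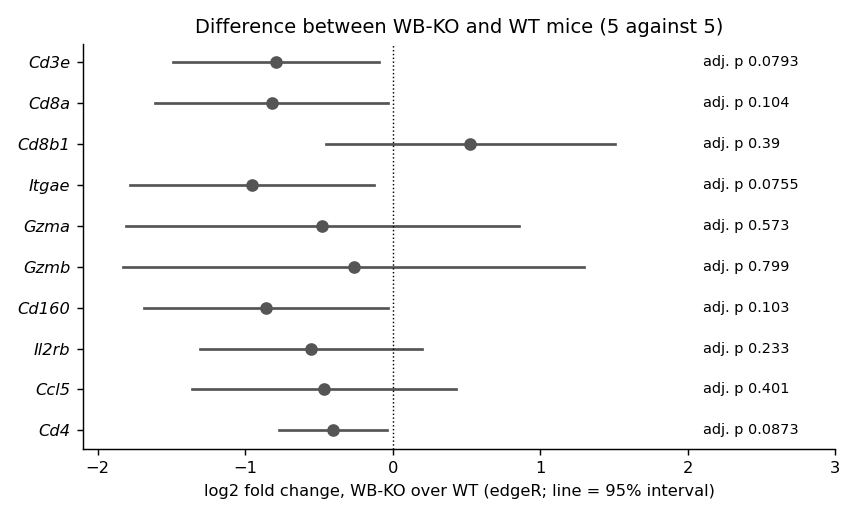
Log2 fold change of the 10 genes between WB-KO and WT mice from edgeR's quasi-likelihood test, with the 95% interval as a line and the adjusted p at the right. The intervals of *Cd3e*, *Cd8a*, *Itgae*, *Cd160* and *Cd4* lie below 0 before adjustment, and no adjusted p is under 0.05.

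Ratios between genes of a library do not depend on how libraries are scaled. They were taken as the log2 ratio of the counts with 0.5 added to each, and compared over all 252 splits into 5 and 5 by a two-sided exact permutation test, which can reach a p of 0.00794 at the lowest. Of 6 ratios, none passed 0.05 after Benjamini-Hochberg adjustment over the 6. That of *Cd8b1* to *Cd8a*, CD8β relative to CD8α, came closest. It was -5.28, -3.85, -5.77, -3.12 and -3.86 in WT 1 to WT 5 and -3.26, -2.64, -1.85, -2.68 and -3.12 in WB-KO 1 to WB-KO 5. Of the WT libraries only WT 4 reached the WB-KO range. The means were -4.38 ± 1.10 and -2.71 ± 0.55, a difference of 1.67 (exact permutation p = 0.0159, adjusted p = 0.0952). Without WT 4 the difference was 1.98 (adjusted exact permutation p = 0.0476). Leaving out any other single library gave an adjusted exact permutation p of 0.0952 to 0.238. Without the 4 libraries with B cell markers the difference was 1.32. With the 4 WT and 2 WB-KO libraries that then remain, the exact test cannot go below 0.0667, and no p is given. *Cd8b1* had 6 to 33 reads per library, so that this ratio rests on few reads.

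The ratio of *Cd8a* to *Cd4* was 0.50, 0.52, 0.35, 0.13 and -0.44 in WT 1 to WT 5 and 0.14, -0.67, -0.89, -0.71 and 0.78 in WB-KO 1 to WB-KO 5. The 4 libraries with B cell markers had the 4 lowest values, in both groups, and the difference between the groups was -0.48 (exact permutation p = 0.238). The means of granzyme relative to CD3 were 2.05 ± 0.53 in WT and 2.15 ± 0.79 in WB-KO mice for *Gzma* to *Cd3e* (exact permutation p = 0.817), and 0.56 ± 0.43 and 0.56 ± 1.16 for *Gzmb* to *Cd3e* (exact permutation p = 1). The latter reached from -0.93 in WB-KO 4 to 2.23 in WB-KO 5. Without the 4 libraries with B cell markers the differences were 0.58 for *Gzma* to *Cd3e* and 0.81 for *Gzmb* to *Cd3e*. *Itgae* to *Cd3e* was between 1.27 and 1.54 in WT mice but 0.39 in WB-KO 4 and 0.93 in WB-KO 2, a difference of -0.25 in the means (exact permutation p = 0.365). *Gzma* to *Gzmb* was 1.50 ± 0.16 in WT and 1.59 ± 0.37 in WB-KO mice (exact permutation p = 0.611), with the lowest value, 1.02, in WB-KO 5.

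**Figure D4:**
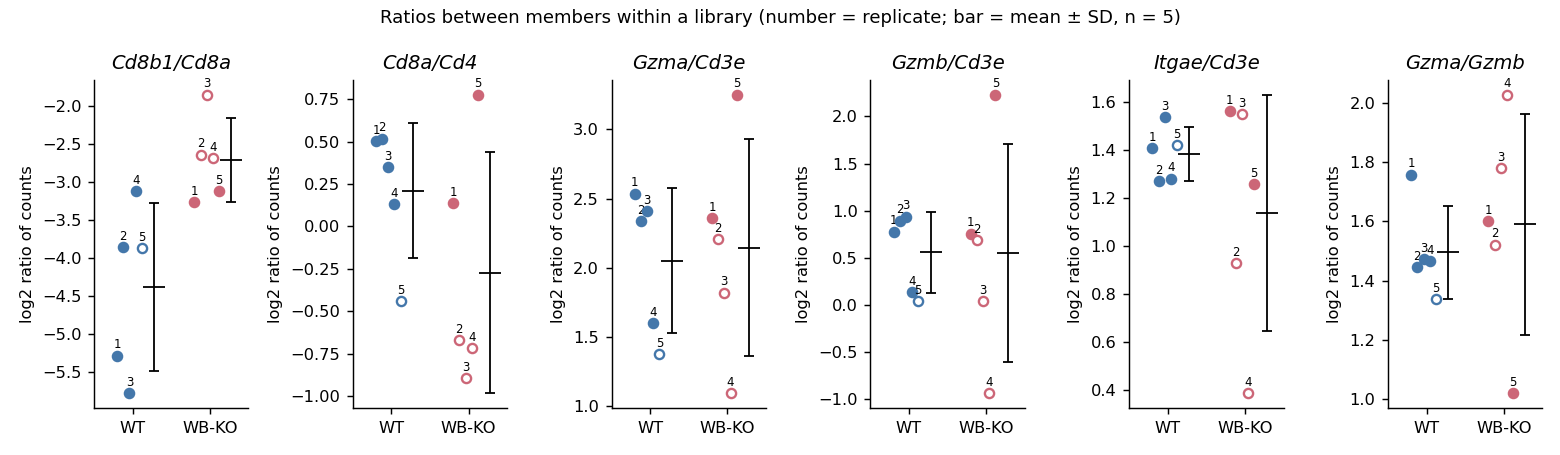
Log2 ratios of counts between 6 pairs of the genes in each library, numbered by replicate, with the group mean ± SD and open circles for the 4 libraries with B cell markers. *Cd8b1* to *Cd8a* lies between -3.26 and -1.85 in WB-KO libraries and reaches down to -5.77 in WT libraries, and the other 5 ratios overlap over most of their range.

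The genes varied together among libraries of a group. After the group means were subtracted, the log2 CPM of *Gzma* and *Gzmb* had a Pearson r of 0.986 over the 10 libraries, and *Cd3e* and *Ccl5* one of 0.974. Against the mean standardised log2 CPM of all 10, r was 0.973 for *Ccl5*, 0.969 for *Cd8a*, 0.955 for *Itgae*, 0.952 for *Cd3e*, 0.938 for *Il2rb*, 0.930 for *Gzma*, 0.920 for *Gzmb* and 0.843 for *Cd160*. It was lowest for *Cd4* (0.630) and *Cd8b1* (0.382). Each gene is part of the mean it was set against, and all values share the scaling of a library. The 8 other genes tested whose levels were most like that mean were *Rabl6* (0.955), *Tbl2* (0.949), *Klc4* (0.948), *Pilra* (0.937), *N4bp1* (0.936), *Ptcd1* (0.935), *Nubp2* (0.934) and *Tfg* (0.930), which were picked as the highest over all genes tested and are given as a description.

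Genes known to act with these 10 were described from 7 lists, of whose matched genes, 102 in all, 88 were tested. There were 4 called lower and 7 called higher in WB-KO mice by edgeR, 12.5% of those tested against 29.9% of all genes tested (4.55% lower and 7.95% higher against 13.9% and 16.0%). *Icos*, *Il15*, *Il7*, *Klrd1*, *Socs1* and *Thy1* were also called whichever library was left out. With the B cell marker score as a covariate, a fit that called 13.1% of all genes tested, *Il15*, *Klrd1* and *Thy1* were no longer called (edgeR adjusted p = 0.0819, 0.0908 and 0.0553). Without the 4 libraries with B cell markers, where 7.05% of all genes tested were called, *Socs1* alone of the 6 was (edgeR adjusted p = 0.0483). The 6 kept their direction in both. With a smooth muscle or an epithelial marker score as a covariate none of the 11 was called, but of all genes tested these fits called only 1 lower and 5 higher, and 2 lower and 5 higher. Among 23 listed genes below the filter, markers included, 4 had an exact permutation p under 0.05 and none after Benjamini-Hochberg adjustment.

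In the T cell receptor and its proximal signalling, 2 of 17 tested genes rose and none fell, with a median log2 fold change of 0.23. *Thy1*, a surface protein of T cells and also of stromal and neural cells, rose from 9.44 ± 1.75 to 14.6 ± 1.58 CPM (log2 fold change 0.63, edgeR adjusted p = 0.00992). *Trbc2*, a constant region of the β chain, rose from 6.83 ± 1.21 to 9.21 ± 0.83 CPM (0.43, edgeR adjusted p = 0.0481), and was called in 1 of the 10 fits that left out a library. The groups did not overlap for either. The other CD3 chains had log2 fold changes of -0.05 (*Cd3d*), -0.20 (*Cd3g*) and 0.40 (*Cd247*), beside -0.79 for *Cd3e*, and did not pass the test. Constant regions of the αβ receptor had positive values, 0.22 for *Trac* and 0.26 for *Trbc1*. Those of the γ chain had negative ones, -0.60 for *Tcrg-C1*, -0.96 for *Tcrg-C2* and -0.85 for *Tcrg-C4* (lowest edgeR adjusted p = 0.0753). *Cd7*, abundant on epithelial T cells, was at 14.1 ± 6.29 and 7.15 ± 3.50 CPM (-0.97, edgeR adjusted p = 0.0770). The T cell surface genes *Cd2*, *Cd5* and *Cd6* and the adaptor *Lat* had positive log2 fold changes of 1.19, 0.89, 0.77 and 0.59. These missed the threshold as well (edgeR adjusted p = 0.0713, 0.0726, 0.107 and 0.0753). *Cd2* was highest in the 4 libraries with B cell markers, at 3.03 CPM in WT 5 and 5.77, 4.97 and 5.72 CPM in WB-KO 2, 3 and 4. Elsewhere it was at 0.727 to 2.15 CPM, and the share of its reads that came from B cells was not tested. *Lck*, the kinase bound to CD4 and CD8, was at 10.8 ± 1.55 and 12.6 ± 0.77 CPM (edgeR adjusted p = 0.165).

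Among cytotoxic and natural killer receptor genes, 1 of 14 tested fell and none rose, with a median log2 fold change of -0.44. *Klrd1*, or CD94, which pairs with NKG2 receptors, was at 6.12, 5.93, 6.88, 3.30 and 3.81 CPM in WT 1 to WT 5 and at 2.70, 1.73, 0.594, 2.29 and 2.73 CPM in WB-KO 1 to WB-KO 5. The groups did not overlap, and the log2 fold change was -1.37 (SE 0.37, edgeR adjusted p = 0.0176). Perforin (*Prf1*) was low, at 1.16 ± 0.47 and 0.884 ± 0.762 CPM. *Srgn*, *Tyrobp* and *Fcer1g*, with the highest mean CPM of the list over all 10 libraries, are shared with myeloid cells, and had log2 fold changes of 0.00, -0.42 and -0.46 that did not pass the test. Of 5 natural killer cell markers, *Ncr1* was at 0.560 ± 0.250 and 0.647 ± 0.202 CPM and the summed level was between 0.648 and 2.59 CPM in all libraries. *Gzmc*, below the filter, had 19 reads over the WT and 5 over the WB-KO libraries, and its groups did not overlap (exact permutation p = 0.00794, adjusted 0.0913).

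In common gamma chain cytokine signalling, 2 of 12 tested genes rose and 1 fell, with a median log2 fold change of 0.13. *Il15*, the cytokine that keeps CD8 T cells in the epithelium and signals through the chain of *Il2rb*, fell from 21.5 ± 6.04 to 12.9 ± 2.41 CPM (log2 fold change -0.73, SE 0.19, edgeR adjusted p = 0.0156). *Il7*, another T cell survival factor of the epithelium, rose from 1.82 ± 0.50 to 4.17 ± 0.32 CPM (1.19, SE 0.21, edgeR adjusted p = 0.00298). *Socs1*, an inhibitor of cytokine receptor signalling, rose from 3.38 ± 0.64 to 10.3 ± 5.79 CPM (1.60, SE 0.33, edgeR adjusted p = 0.00581). The groups did not overlap for any of the 3. *Il15ra*, which presents interleukin-15 to T cells, was at 14.9 ± 2.32 and 11.2 ± 3.41 CPM (edgeR adjusted p = 0.131). *Jak1*, *Stat5b* and *Jak3*, which had the highest mean CPM of this list over all 10 libraries, had log2 fold changes of -0.26, 0.12 and 0.14 that did not pass the test.

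Genes of gut homing and retention numbered 14 tested, with 1 higher, none lower and a median log2 fold change of 0.28. *Cd69*, which keeps T cells in tissues, rose from 1.65 ± 0.35 to 2.94 ± 0.94 CPM (0.83, edgeR adjusted p = 0.0408). Its groups overlapped, it was called in 2 of the 10 fits that left out a library, and it is named after its values were seen. *Ccr9*, the receptor that guides T cells to the small intestine, was at 10.3 ± 2.55 and 5.41 ± 3.54 CPM (-0.94, edgeR adjusted p = 0.0929). Its ligand *Ccl25*, made by the epithelium, was at 493.0 ± 31.6 and 368.6 ± 134.2 CPM (-0.42, edgeR adjusted p = 0.187). *Cxcl16* (29.4 ± 3.70 and 24.2 ± 2.17 CPM) and *Itga1* (23.5 ± 2.69 and 26.1 ± 4.13 CPM) did not pass the test.

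Of 13 tested T cell transcription factors, 1 fell and none rose, with a median log2 fold change of 0.04. *Ahr*, a sensor of dietary and microbial compounds that epithelial T cells need, fell from 31.1 ± 6.11 to 17.3 ± 6.57 CPM (-0.85, edgeR adjusted p = 0.0326). It is named after its values were seen, its groups overlapped, and the call was lost without WT 1, WT 2, WT 3 or WB-KO 5. *Zbtb7b*, *Id2* and *Bcl11b* had the highest mean CPM over all 10 libraries and log2 fold changes of 0.03, 0.04 and -0.01. *Runx3*, a factor of CD8 T cells, was at 8.81 ± 1.84 and 6.55 ± 1.63 CPM (-0.43, edgeR adjusted p = 0.129). Below the filter, *Zfp683*, or Hobit, a factor of tissue-resident T cells, had 34 reads in WT and 10 in WB-KO libraries (exact permutation p = 0.00794, adjusted 0.0913). *Eomes* had 7 and 53 reads (exact permutation p = 0.0159, adjusted 0.0913).

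Among 6 tested helper and regulatory T cell genes, *Icos*, a costimulatory receptor of activated and follicular helper T cells, rose from 1.81 ± 0.40 to 3.39 ± 0.35 CPM (0.90, SE 0.20, edgeR adjusted p = 0.00745), without overlap. *Cd28*, a costimulatory receptor of T cells, was at 4.08 ± 0.65 and 3.04 ± 1.70 CPM (edgeR adjusted p = 0.414). The list's median log2 fold change was -0.09.

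Partners of the proteins encoded by the 10 genes numbered 12 tested, 1 higher and 1 lower, with a median log2 fold change of -0.08. *H2-T3*, the thymus leukemia antigen of the epithelium that binds CD8α homodimers, fell from 156.7 ± 35.1 to 91.9 ± 26.7 CPM (-0.77, SE 0.21, edgeR adjusted p = 0.0200). Its groups overlapped, the call was lost without WT 3, and it is named after its values were seen. *Serpinb9*, an inhibitor of granzyme B, rose from 9.49 ± 0.71 to 12.5 ± 1.77 CPM (0.40, edgeR adjusted p = 0.0338), without overlap, and was called in 3 of the 10 fits that left out a library. *Cdh1*, which encodes E-cadherin, the ligand of the *Itgae* product, was at 699.9 ± 76.4 and 798.6 ± 115.1 CPM (edgeR adjusted p = 0.297). *Tnfrsf14*, the HVEM that CD160 binds, was at 46.5 ± 6.69 and 37.0 ± 13.0 CPM (edgeR adjusted p = 0.258). The MHC class I genes *B2m*, *H2-K1* and *H2-D1* had log2 fold changes of -0.27, 0.02 and 0.40 that did not pass the test. *Ccr1* and *Ccr3*, which encode chemokine receptors, had log2 fold changes of -0.35 and -1.42 that did not pass the test.

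**Figure D5:**
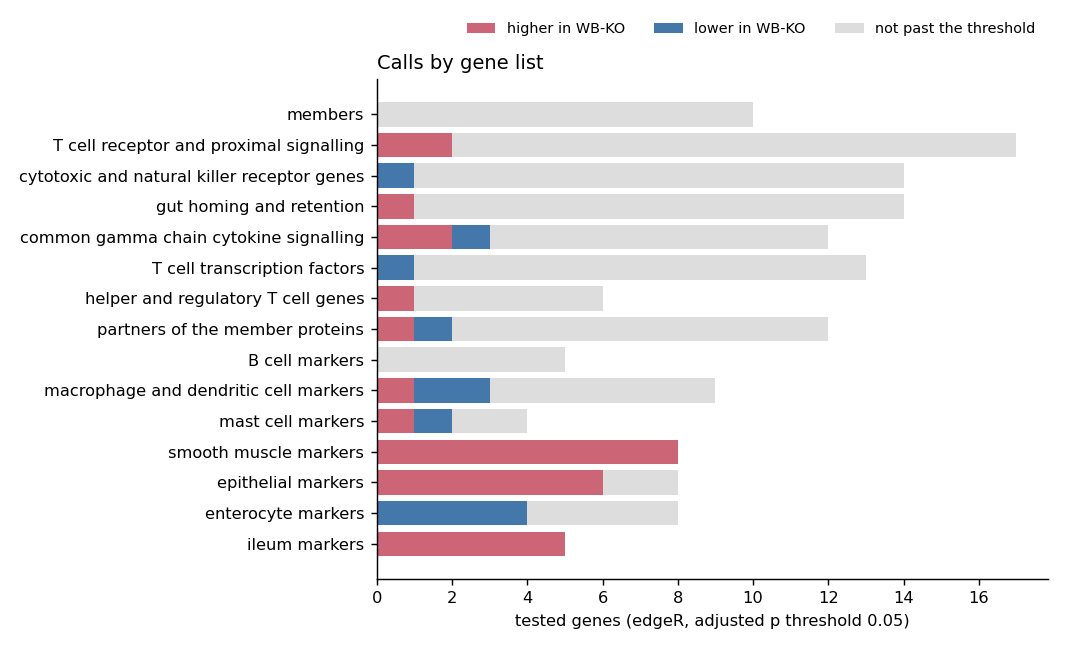
Number of tested genes called higher, called lower or not past the threshold in WB-KO against WT mice (edgeR, adjusted p threshold 0.05) for the 10 lymphocyte genes, 7 lists of related genes and 7 lists of cell type or tissue markers. None of the 10 is called, against all 8 smooth muscle and all 5 ileum markers called higher.

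Other cell types moved with the groups as well. Of 8 enterocyte markers 4 fell and all 8 had negative log2 fold changes, down to -5.44 for *Fabp1*, with summed levels of 29202 to 39595 CPM in WT and 11380 to 27328 CPM in WB-KO libraries. Of 8 general epithelial markers 6 rose, with summed levels of 11180 to 13243 CPM in WT and 14660 to 20241 CPM in WB-KO libraries. Of 9 macrophage and dendritic cell markers 2 fell, *Itgax* and *Csf1r*, and 1 rose, *Cd14*. Of 4 tested mast cell markers *Cpa3* fell and *Kit*, which pacemaker cells of the muscle also carry, rose. None of 5 tested B cell markers passed the test, although their median log2 fold change was 2.36. The part of these cell types in the levels of the 10 lymphocyte genes was not tested beyond the fits with a marker score as a covariate.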

How the data were processed

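RNA-seq libraries from proximal intestine of 5 WB-KO and 5 WT mice, 1 per mouse, were used. Each file as deposited by the authors lists whole-number read counts for Ensembl gene IDs of a single library, not normalized. The submitters' processing notes name FastQC 0.11.9, Trimmomatic, HISAT2 2.0.4, SAMtools 1.3.1 and DESeq2 1.14.1 and the build GRCm38 (mm10); read counter, annotation and strand setting were not given in the sources used here, so that reads of overlapping genes may be counted for either. Symbols came from GENCODE M21 and matched 34490 of 35275 IDs; *Trdc* was not matched.

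R 4.3.3 was used with edgeR 4.0.16 (quasi-likelihood test, TMM, filterByExpr with a minimum count of 10 and a minimum total of 15, Benjamini-Hochberg threshold 0.05) on 15610 genes. Below the filter, genes were compared by mean log2 CPM (prior count 2) and ratios with a pseudocount of 0.5, both with exact permutation tests. With 5 mice per group, p-values rest on the spread between these mice, and a gene at 0 counts in a library allows up to 3 counts at 95% confidence, for counting error only. Fits were tested on simulated data.

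The 10 genes and all lists were chosen with earlier results of these data known. Named genes were the 10 genes, *Slc39a14*, the called genes of a list without overlap (at most 4) and its 3 genes with the highest mean CPM over all libraries, and the 8 genes most like the mean of the 10; other genes were named for their role after their values were seen. Some genes that this rule names are not reported here. Alternatives were RLE or library size scaling, DESeq2 1.42.0, other filters, robust dispersion, leaving out each mouse, the replicate number as a block and marker scores as covariates. A B cell score and leaving out the 4 libraries with B cell sums of at least 100 CPM were added after seeing the data.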

Additional observations from a re-analysis of the deposited data

Results flagged for a closer look

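A library was singled out where its gap to the nearest library of its group, over the range of the group, passed Dixon's 95% value for 5 samples. Of 66 groups of 5 values examined, 4 were singled out, and chance gives about 3.3 at 1 in 20. *Gzmb* was at 52.5 CPM in WB-KO 5, and between 2.81 and 16.4 CPM in the remaining WB-KO mice. The same library had a summed level of 8608 CPM for the partners of the 10 proteins, mostly MHC class I genes, where the remaining WB-KO mice had 3991 to 4812 CPM. *Slc39a14* was at 160.1 CPM in WB-KO 1, where the remaining WB-KO mice had 78.5 to 93.8 CPM. WB-KO 1 is also the library without which 4 of the 10 lymphocyte genes were called lower, beside 16.1% of all genes tested. It had the highest summed enterocyte markers of the WB-KO libraries, 27328 CPM against 11380 to 16463 CPM, and their lowest B cell sum, 13.2 CPM. A link between these was not tested. The B cell markers summed to 108.2 CPM in WT 5, against 10.6 to 17.6 CPM in the other WT libraries.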

How the results depend on the processing

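Over the alternatives, no lymphocyte gene was ever called higher. Counts called lower were 2 by DESeq2 (13.2% of all genes), 0 to 4 when each library was left out (0 without WT replicate 1, 4 without WB-KO replicate 1, with 10.4% and 16.1% of all genes) and 0 otherwise. Of all genes, these other fits called between 0.00641% (smooth muscle score) and 14.3% (RLE) lower. With the smooth muscle score as a covariate the log2 fold changes turned positive for *Cd3e* (0.33), *Cd8a* (0.61), *Itgae* (0.73), *Gzma* (2.21), *Gzmb* (2.88), *Cd160* (0.22), *Il2rb* (0.996), *Ccl5* (1.19) and *Cd4* (0.095), and with the epithelial score for *Il2rb* (0.11) and *Cd4* (0.22). With the B cell score they did for *Gzma* (0.31), *Gzmb* (0.47) and *Ccl5* (0.14), and without the 4 libraries with B cell markers for *Gzma* (0.15) and *Gzmb* (0.49). *Gzmb* ranged from -1.26 to 0.012 over the fits that left out a library. *Slc39a14* was no longer past the threshold with the smooth muscle score (-0.56), the epithelial score (-1.01) and without the 4 libraries (-1.09). Related genes were 4 lower and 7 higher in the main fit, beside 13.9% and 16.0% of all genes. They became 3 lower and 13 higher with library size only (10.2% and 23.1% of all genes), and 9 lower and 9 higher with DESeq2 (13.2% and 14.9%). With the smooth muscle or the epithelial score they were 0 lower and 0 higher, where 0.0384% and 0.0448% of all genes were called. They were 0 lower and 3 higher with the B cell score (7.02% and 6.09%), and 0 lower and 2 higher without the 4 libraries (3.65% and 3.41%). Leaving out each library gave 2 to 12 lower and 4 to 11 higher, the most lower without WB-KO 1 and the most higher without WT 5. Over these fits, 9.90% to 16.1% of all genes were called lower and 10.3% to 18.5% higher.

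Over the same fits the *Cd8b1*/*Cd8a* ratio differed by 1.32 to 1.98, *Gzma*/*Cd3e* by -0.18 to 0.36, *Gzmb*/*Cd3e* by -0.42 to 0.37, *Gzma*/*Gzmb* by -0.015 to 0.24, *Cd8a*/*Cd4* by -0.75 to -0.33 and *Itgae*/*Cd3e* by -0.35 to -0.058. The difference of *Gzmb*/*Cd3e* was 0.00137 with a pseudocount of 2. Without the 4 libraries the differences were 0.082 for *Cd8a*/*Cd4*, 0.58 for *Gzma*/*Cd3e*, 0.81 for *Gzmb*/*Cd3e*, 0.037 for *Itgae*/*Cd3e* and -0.22 for *Gzma*/*Gzmb*. The covariates are marker scores that differ between the groups, and leaving out libraries reduces n; beyond this the cause was not tested. No pairing by replicate number was seen, with correlations of same-numbered libraries between -0.17 and 0.18 after the group means were subtracted. These also hold the differences in tissue makeup between libraries, so that they cannot exclude a pairing. With the replicate block, 2 related genes were called lower and 5 higher, and 0 lymphocyte genes were called. Of all genes tested, that fit called 12.2% lower and 12.5% higher. The *Cd8b1*/*Cd8a* ratio then had an exact permutation p of 0.0625, the lowest this test can reach with 5 pairs. Scaling to library size moved the median log2 fold change of all genes from 0.03 to 0.15. Low counts limit *Cd8b1*.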
